A study of Mus musculus with 2 samples.

Results

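The cardiac transcription factor genes described here were 9 loci chosen by name, Gata4, Gata6, Mef2a, Mef2c, Mef2d, Tbx5, Tbx20, Hand2 and Nkx2-5, among the 25235 rows of read counts by allele that 1 adult and 1 aged mouse heart gave in single-nucleus RNA sequencing (snRNA-seq). All 9 were listed in both libraries, and 7 of them had at least 20 reads in each, the minimum used for counting genes. Hand2 and Nkx2-5 did not reach this minimum in both libraries and entered no count of members, and their values are given with wide intervals.

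The hearts came from female F1 mice of a C57BL/6J (BL6) mother and a CAST/EiJ (CAST) father, 1 of 9 weeks (adult) and 1 of 78 weeks (aged). The sample titles and the genotype field name wild-type animals (++), and the mothers were of a line with a deletion of Xist (∆Xist -/+), which the strain field lists. Each F1 nucleus holds 1 BL6 and 1 CAST copy of every autosome, so a read over a position at which the strains differ (a single-nucleotide polymorphism, SNP) can be given to 1 allele. The authors pooled, for each age, the nuclei with an active BL6 X (BL6 Xa) into 1 pseudobulk, so the nuclei with an active CAST X are not analysed here. Because the cross was made in 1 direction, strain and parental origin of an allele cannot be told apart. With 1 library per age there was no replicate and no test between ages, and every interval below is a 95% interval that covers counting error only.

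The members are DNA-binding proteins with which the heart is built and its muscle identity kept. GATA factors bind GATA sequences and drive cardiac muscle genes, MEF2 proteins are MADS-box factors held in check by class IIa histone deacetylases and released by calcium signalling, and T-box factors pattern the chambers and the conduction system. Nkx2-5 is a homeodomain protein and Hand2 a basic helix-loop-helix protein, and the members bind many cardiac promoters and enhancers together.

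Reads over SNPs numbered 9747535 in the adult heart and 5805807 in the aged heart, and counts were scaled to these totals (reads per 1000000, RPM), so that 20 reads correspond to 2.05 RPM (adult) and 3.44 RPM (aged). Over 12390 autosomal genes with at least 20 reads in each library, the median ratio of aged over adult RPM was 1.17. The interquartile range was 0.868 to 1.57, and the median is a shift of 0.22 on the log2 scale. Ratios of members are therefore also given relative to the median of autosomal genes with at least 100 reads in each library, 1.16. Ryr2, the calcium release channel of cardiac muscle, had the most reads of any row in both libraries. Summed over 10 cardiomyocyte markers, the adult heart gave 29246 RPM and the aged heart 26837 RPM, with 8 of the 10 higher and 2 lower (Ttn, the giant sarcomere protein, at a ratio of 0.580, and Tnnt2 at 0.976). Ratios of summed RPM were 0.826 for atrial cardiomyocyte, 1.57 for fibroblast, 1.36 for endothelial, 1.86 for pericyte, 3.00 for smooth muscle, 1.62 for macrophage, 0.385 for lymphocyte, 0.306 for mesothelial, 0.892 for adipocyte, 1.26 for Schwann and 3.01 for lymphatic markers. Cd3e of the lymphocyte list had 0 reads in the aged library. Some sums rest largely on 1 gene. Of the Schwann sum Cdh19 held 105 of 107 RPM (adult) and 133.8 of 134.3 RPM (aged). Kcna1 (16 and 2 reads) and Sox10 (2 and 1) had ratios below 1. Of the fibroblast sum Dcn held 461 of 695 RPM (adult) and 773 of 1090 RPM (aged). Among 7 fibroblast markers with at least 20 reads in each library, 5 were higher and 2 lower. Of the smooth muscle sum Myh11 held 66.4 of 94.2 RPM (adult) and 220 of 283 RPM (aged). With the same minimum, 3 smooth muscle markers were higher and 0 lower, 4 pericyte markers higher and 1 lower. Of the endothelial markers 6 were higher and 2 lower. Fibroblasts, mural cells and endothelium express some of the members too, and the part of cell makeup in the values below was not tested. In such pooled nuclei, fewer cells of a type and less RNA per cell cannot be told apart.

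The 9 members together took 16153 reads in the adult (1657 RPM) and 11289 in the aged heart (1944 RPM). Between genes, levels are compared as RPM per kb of locus, which still depends on how many SNPs a locus holds. It also takes reads to grow with locus length, which was not tested for these 3′ libraries. In the adult heart Tbx20 stood highest at 7.19 RPM per kb, followed by Gata6 at 6.21, Mef2a at 3.41, Gata4 at 3.19, Mef2d at 1.47, Mef2c at 1.39, Tbx5 at 0.830, Nkx2-5 at 0.826 and Hand2 at 0.464. The counting intervals overlapped between the neighbours Mef2a and Gata4, Mef2d and Mef2c, Tbx5 and Nkx2-5, and Nkx2-5 and Hand2. In the aged heart Tbx20 again stood highest at 13.7 RPM per kb. It was followed by Gata4 at 5.13, Gata6 at 5.12, Mef2a at 2.60, Mef2d at 2.40, Mef2c at 1.04, Tbx5 at 0.584, Nkx2-5 at 0.462 and Hand2 at 0.341, with overlapping intervals for Gata4 and Gata6, Mef2a and Mef2d, and the last 3 genes among themselves. Per kb of locus, Gata4 thus stood below Gata6 in the adult and level with it in the aged heart. By the same measure Mef2d moved from the level of Mef2c to that of Mef2a. These orders depend on the division by length. By reads alone Gata4 stood above Gata6 in the adult (2265 and 2006) and the aged heart (2168 and 985). Mef2d had fewer reads than Mef2c and Mef2a in both libraries.

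**Figure D1:**
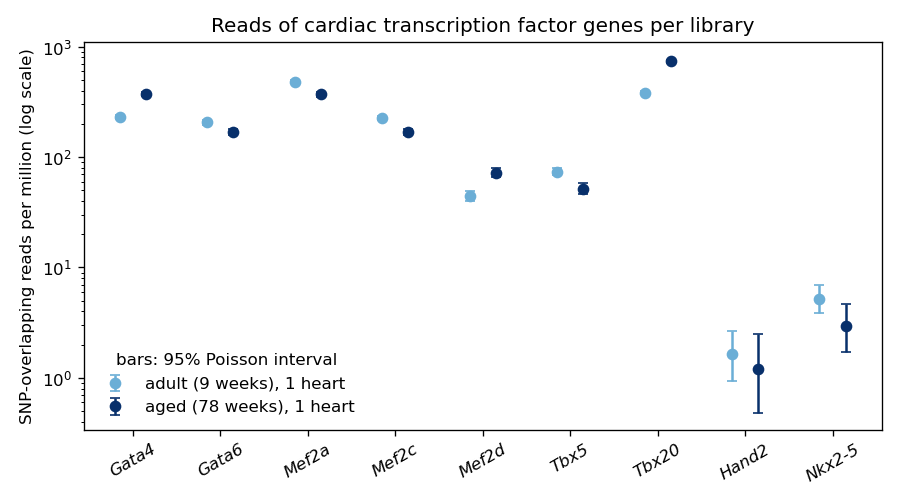
RPM of the 9 members in the adult and the aged library on a log axis, with exact Poisson 95% intervals of the counts. Gata4, Mef2d and Tbx20 lie higher in the aged library, Gata6, Mef2a, Mef2c and Tbx5 lower, and Hand2 and Nkx2-5 near the level of 20 reads.

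The GATA pair moved apart between the ages. Gata4 (chr14:63198914-63271715, GRCm38), a zinc-finger activator of cardiac muscle genes, had 2265 reads in the adult (232 RPM) and 2168 in the aged heart (373 RPM), a ratio of 1.61 (1.51 to 1.71). Gata6 (chr18:11052510-11085636), its close relative in heart and endoderm, had 2006 reads (206 RPM) and 985 reads (170 RPM), a ratio of 0.824 (0.763 to 0.890). The intervals of the levels did not overlap between the ages for either gene, and the directions were opposite. Gata4 made up 53.0% of the reads of the pair in the adult and 68.8% in the aged heart, and the ratio of Gata4 to Gata6 reads went from 1.13 to 2.20, a 1.95-fold change (1.77 to 2.15), a value that does not depend on the scaling. Summed, the pair stood at 438 RPM in the adult and 543 RPM in the aged heart.

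Of the MEF2 genes 2 were lower and 1 was higher in the aged heart. Mef2a (chr7:67231163-67372999), the member with the most reads in the adult library, had 4709 reads (483 RPM) there and 2143 (369 RPM) in the aged library, a ratio of 0.764 (0.726 to 0.804). Mef2c (chr13:83504034-83667079), which is needed for formation of the right ventricle, had 2207 reads (226 RPM) and 982 reads (169 RPM), a ratio of 0.747 (0.692 to 0.806). Mef2a had 2.13 times the reads of Mef2c in the adult heart and 2.18 times in the aged heart, so the change in one over the change in the other was 1.02 (0.934 to 1.12), and a difference between them was not detectable at this depth. Mef2d (chr3:88141966-88172091), which transmits stress signals in adult heart muscle, had 433 reads (44.4 RPM) and 419 reads (72.2 RPM), a ratio of 1.62 (1.42 to 1.86). Its share of the reads of the 3 genes went from 5.89% to 11.8%, and relative to Mef2a it was 2.13 times higher in the aged heart (1.84 to 2.45). The summed MEF2 level was 754 RPM in the adult and 610 RPM in the aged heart, with Mef2a at 64.1% and 60.5% of it.

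The start regions of the MEF2 genes that moved in opposite directions are shown because they differ in sequence. RefSeq promoter windows on GRCm38.p6, from 250 bases before to 50 after the start of a transcript, were at hand for 6 of the 9 members (Mef2a, Mef2c, Mef2d, Tbx20, Hand2 and Nkx2-5). Each was searched on both strands for a GATA motif (AGATAA or TGATAA), a T-box motif (AGGTGT), an NK2 motif (AAGTG) and the MEF2 motif, which 18.6%, 13.7%, 46.4% and 3.19% of all 32851 windows held, and matches are in capitals. The window of Mef2a (chr7:67372809-67373108, minus strand) held 1 MEF2 match, which spans its start site, and that of Mef2d (chr3:88142122-88142421, plus strand) held no match to any of the 4 motifs.
Mef2a: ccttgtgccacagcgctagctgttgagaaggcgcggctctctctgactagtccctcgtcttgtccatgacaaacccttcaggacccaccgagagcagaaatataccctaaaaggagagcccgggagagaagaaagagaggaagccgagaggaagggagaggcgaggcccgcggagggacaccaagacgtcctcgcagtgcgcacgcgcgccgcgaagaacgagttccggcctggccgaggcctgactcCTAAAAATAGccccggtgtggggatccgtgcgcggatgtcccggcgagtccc
Mef2d: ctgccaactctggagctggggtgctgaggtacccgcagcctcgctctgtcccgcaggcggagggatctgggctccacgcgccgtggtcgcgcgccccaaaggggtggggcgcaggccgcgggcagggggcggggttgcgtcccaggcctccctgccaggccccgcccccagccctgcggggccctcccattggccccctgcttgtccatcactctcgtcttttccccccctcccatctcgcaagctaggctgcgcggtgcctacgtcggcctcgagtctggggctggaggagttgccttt
The Mef2a window had 27 CpG and 62.3% GC and the Mef2d window 24 CpG and 72% GC, against medians of 7 CpG and 52.7% GC over all windows. Mef2c had windows for 3 starts, with 1, 10 and 4 CpG, each with 1 NK2 match, and the second also with 1 T-box match. A match is only a string of letters, and a window without one says nothing of binding.

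Of the pairs compared, the T-box genes differed most. Tbx20 (chr9:24720812-24774303), a regulator needed in adult cardiomyocytes, had 3748 reads in the adult (385 RPM) and 4267 in the aged heart (735 RPM), a ratio of 1.91 (1.83 to 2.0). It was the only member with more reads in the aged library, although that library held fewer reads in all. Tbx5 (chr5:119796514-119885220), a factor of the left ventricle, atria and conduction system, had 718 reads (73.7 RPM) and 301 reads (51.8 RPM), a ratio of 0.704 (0.613 to 0.806). Tbx20 made up 83.9% of the reads of the pair in the adult and 93.4% in the aged heart, and the ratio of Tbx20 to Tbx5 reads went from 5.22 to 14.2, a 2.72-fold change (2.36 to 3.13). The pair summed to 458 RPM in the adult and 787 RPM in the aged heart.

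The start region of Tbx20 is shown as that of the member with the largest ratio. Its window (chr9:24774254-24774553, minus strand) held 26 CpG and 68.3% GC, and none of the 4 motifs.
Tbx20: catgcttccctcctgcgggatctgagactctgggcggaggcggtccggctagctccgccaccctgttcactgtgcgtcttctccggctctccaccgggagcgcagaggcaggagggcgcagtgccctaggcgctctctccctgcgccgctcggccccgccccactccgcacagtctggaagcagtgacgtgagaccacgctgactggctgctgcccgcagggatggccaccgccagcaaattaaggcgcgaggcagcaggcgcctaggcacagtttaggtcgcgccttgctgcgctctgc
The windows of Mef2d and Tbx20, both higher in the aged heart, and of Mef2a, which was lower, were alike in CpG number. Those of Mef2c, also lower in the aged heart, held fewer, with 1, 10 and 4 CpG.

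The remaining members were at the limit of the data. Nkx2-5 (chr17:26838664-26844995), an early regulator of cardiac muscle, had 51 reads in the adult (5.23 RPM) and 17 in the aged heart (2.93 RPM), a ratio of 0.560 with the wide interval of 0.303 to 0.985. Hand2 (chr8:57320983-57324517), needed for growth of the right ventricle, had 16 reads and 7 reads, a ratio of 0.735 (0.256 to 1.89). A change in Hand2 was not detectable at this depth. They are the shortest member loci, with 6.33 kb for Nkx2-5 and 3.54 kb for Hand2 against 30.1 kb for Mef2d, the next in length, and at 142 and 163 kb Mef2a and Mef2c are the longest.

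The start of Hand2 lies 123 bp from a neighbouring row with many more reads, LOC102636514 (chr8:57304414-57320859), which had 1505 reads in the adult (154 RPM) and 918 in the aged heart (158 RPM). In GENCODE M21 the minus-strand long noncoding RNA Hand2os1 (chr8:57281117-57324233) spans both this row and most of Hand2. The promoter window of Hand2 (chr8:57320733-57321032, plus strand) is shown because it holds both the start of Hand2 and the end of the neighbouring row. The neighbouring row ends at position 127 of the window, 2 GATA matches begin at positions 36 and 79, within the neighbouring row, and the start site of Hand2 is position 251. The window also held 1 NK2 match.
Hand2: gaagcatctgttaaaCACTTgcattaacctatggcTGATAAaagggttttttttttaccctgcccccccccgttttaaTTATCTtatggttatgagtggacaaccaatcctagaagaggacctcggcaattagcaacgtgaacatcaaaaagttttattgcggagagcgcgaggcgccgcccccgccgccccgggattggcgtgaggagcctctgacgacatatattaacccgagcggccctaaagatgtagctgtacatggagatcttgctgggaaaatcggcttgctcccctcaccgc
The counting is not stated to use strand, so reads of Hand2 and Hand2os1 over their common stretch cannot be told apart.

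Counted by a fold of 1.5, 3 of the 7 members with at least 20 reads were higher in the aged heart (Gata4, Mef2d and Tbx20) beside 28.3% of the 12390 autosomal genes, and 0 were lower beside 11.7%. By the counting interval, the same 3 members lay above a ratio of 1 beside 42.6% of the genes. The other 4 (Gata6, Mef2a, Mef2c and Tbx5) lay below 1 beside 20.6%. Intervals are narrower for genes with more reads, and shares at a like depth were not computed for this rule. With 7 genes such counts say little of the members as a group, whose median ratio was 0.824 (-0.28 on the log2 scale) beside 1.17 over all genes. Among all genes, the log2 ratios of Tbx20, Mef2d and Gata4 stood at the percentiles 86.5, 77.6 and 77.0, and those of Gata6, Mef2a, Mef2c and Tbx5 at 21.7, 17.4, 16.3 and 13.8, so that no member was extreme.

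Relative to the median ratio of 1.16 over autosomal genes with at least 100 reads in each library, the picture leaned the other way. By that measure 1 member, Tbx20 at 1.65, was at least 1.5-fold higher in the aged heart beside 18.6% of the 12390 genes. Mef2a at 0.660, Mef2c at 0.646 and Tbx5 at 0.608 were past the same fold in the other direction, 3 of 7 beside 17.9%. Gata4 at 1.39 and Mef2d at 1.40 stayed short of the fold, as did Gata6 at 0.712, and each of the 7 members kept its side of 1. With the summed cardiomyocyte markers as the scale in place of library totals, the ratios ran from 0.767 for Tbx5 and 0.898 for Gata6 to 1.75 for Gata4, 1.77 for Mef2d and 2.08 for Tbx20, again with no change of side. Of that sum Ttn held 11849 of 29246 RPM in the adult heart, and its ratio was 0.580. As 8 of the 10 markers were higher in the aged heart, with a median marker ratio of 1.15, this scale depends on Ttn.

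**Figure D2:**
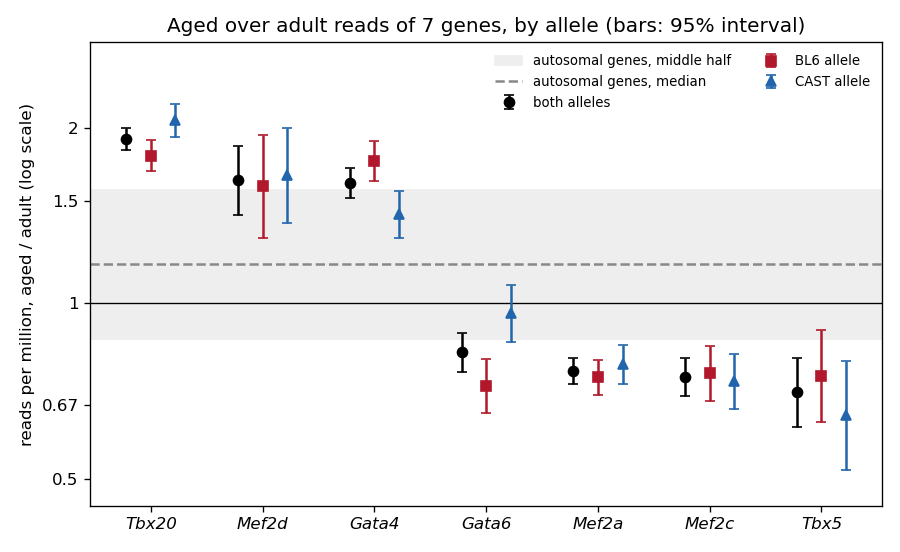
Ratio of aged over adult RPM of each member for both alleles together, for BL6 reads and for CAST reads, on a log axis with exact 95% intervals of the counts and with the median of all autosomal genes for comparison. For Gata6 the BL6 ratio of 0.721 lies below the CAST ratio of 0.961, and Gata4 and Tbx20 also differ between the alleles.

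Ratios fell with locus length over the autosomal genes, so the members were set beside genes of like length. Among genes with at least 100 reads in each library the median ratio was 1.40 for loci under 10 kb, 1.28 from 10 to 20 kb, 1.19 from 20 to 40 kb, 1.14 from 40 to 80 kb, 1.07 from 80 to 160 kb and 0.945 above 160 kb. Over the median of its own class, Tbx20 stood at 1.67, Gata4 at 1.40 and Mef2d at 1.36. The lower members stood at 0.790 for Mef2c, 0.714 for Mef2a, 0.692 for Gata6 and 0.658 for Tbx5. All 7 kept their direction. Gata6 and Mef2d, of nearly the same length at 33.1 and 30.1 kb, had ratios of 0.824 and 1.62.

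**Figure D3:**
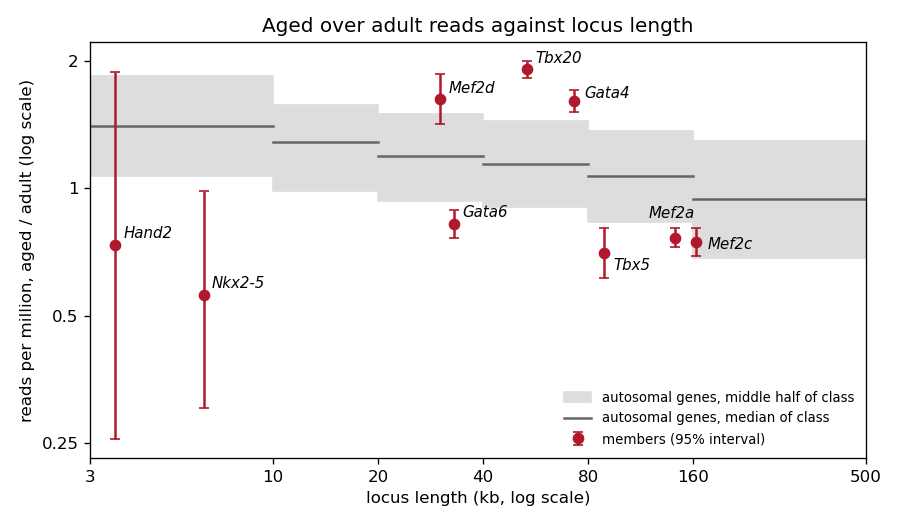
Ratio of aged over adult RPM against locus length, both on log axes. Grey bands give the interquartile range and lines the median of autosomal genes with at least 100 reads in 6 length classes (the last class is open, drawn to 500 kb), and points the members with their 95% intervals. Tbx20, Mef2d and Gata4 lie above and Gata6, Mef2a and Tbx5 below the band of their class.

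The allelic ratio is the share of BL6 reads among the BL6 and CAST reads of a gene, computed here from the counts, and over the autosomes it came to 0.534 (adult) and 0.538 (aged). The members were read from both alleles, with allelic ratios between 0.464 and 0.571 in the adult and between 0.453 and 0.607 in the aged heart for the 7 with at least 20 reads. In the adult heart the allelic ratio intervals of Gata4, Gata6 and Mef2a lay above the autosomal share, 3 of 7 beside 22.7% of all genes, and those of Mef2c and Mef2d below it, 2 of 7 beside 21.7%. In the aged heart Gata4 alone lay above the share, beside 22.5%. Gata6, Mef2d and Tbx20 lay below it, 3 of 7 beside 23%. Such intervals narrow with depth. The 7 members had at least 301 reads in each library while the genes beside them start at 20. Shares at a like depth were not computed for these counts. Set against the share, Gata4 thus lay to the BL6 side and Mef2d to the CAST side in both libraries, while Gata6 changed sides. In the adult heart the interval of Gata4 began at 0.5355, just above the share of 0.5338. Both intervals of Mef2d (0.416 to 0.512 and 0.405 to 0.503) and that of aged Gata6 (0.468 to 0.531) hold 0.5.

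The allelic ratio intervals of Gata4, Gata6 and Tbx20 did not overlap between the ages, 3 of 7 members beside 11.8% of all autosomal genes. Among genes with at least 500 reads in each library, whose intervals are narrow, it was 3 of 5 beside 27.2%. The allelic ratio of Gata4 was 0.556 (0.536 to 0.577) in the adult heart, from 1260 BL6 and 1005 CAST reads, and 0.607 (0.587 to 0.628) from 1317 and 851 reads in the aged heart, so adult minus aged was -0.0512 (-0.0801 to -0.0221). Gata6 went the other way, from 0.571 (0.549 to 0.593) with 1145 BL6 and 861 CAST reads to 0.499 (0.468 to 0.531) with 492 and 493 reads, a difference of 0.0713 (0.0333 to 0.109). Tbx20 had an allelic ratio of 0.549 (0.532 to 0.565) from 2056 BL6 and 1692 CAST reads and of 0.513 (0.498 to 0.529) from 2191 and 2076 reads, a difference of 0.0351 (0.0132 to 0.0569).

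By allele and on library totals, the lower level of Gata6 in the aged heart lay with BL6 reads, at a ratio of 0.721 (0.648 to 0.803). The CAST reads gave 0.961 (0.859 to 1.08), an interval that holds 1 but lies below the median ratio of 1.17 over all autosomal genes. Relative to that median both alleles of Gata6 were thus lower, BL6 more so. Gata4 was higher for both alleles, by 1.75 for BL6 (1.62 to 1.90) and 1.42 for CAST (1.30 to 1.56). Tbx20 was likewise higher for both, with the larger ratio on CAST, 2.06 (1.93 to 2.20), against 1.79 on BL6 (1.68 to 1.90).

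For the other members the allelic ratio intervals overlapped between the ages. Mef2a had an allelic ratio of 0.564 (adult) and 0.552 (aged), a difference of 0.0123 (-0.0131 to 0.0377), and Mef2c of 0.502 and 0.509, a difference of -0.00758 (-0.0451 to 0.0300). Both alleles of these genes gave ratios below 1, at 0.747 for BL6 and 0.786 for CAST reads of Mef2a and 0.758 and 0.736 for those of Mef2c. Mef2d had an allelic ratio of 0.464 and 0.453, a difference of 0.0107 (-0.0560 to 0.0773), with a higher level for both alleles (1.59 for BL6 and 1.66 for CAST). Tbx5 had an allelic ratio of 0.557 and 0.595, a difference of -0.0376 (-0.103 to 0.0292). For Nkx2-5 the adult heart gave 21 BL6 and 30 CAST reads and the aged heart 10 and 7, and Hand2 had 3 and 13 against 4 and 3, too few to place an allelic ratio. The median absolute difference in allelic ratio was 0.0351 over the 7 members and 0.0572 over all autosomal genes tested, or 0.0314 over those with at least 500 reads.

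**Figure D4:**
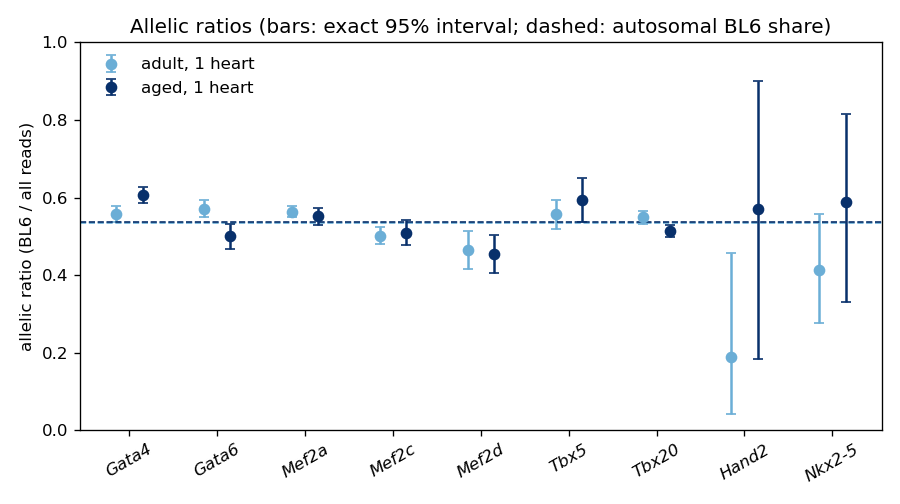
Allelic ratio (share of BL6 reads) of the members in the adult and the aged library with exact 95% binomial intervals, and dashed lines at the autosomal BL6 shares of 0.534 and 0.538. The intervals of Gata4, Gata6 and Tbx20 do not overlap between the ages, and those of Hand2 and Nkx2-5 are wide.

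Some member loci overlap other rows and can hold their reads. Tbx5 wholly contains Gm5563 (29350 bp), for which the adult heart gave 168 reads with an allelic ratio of 0.339 (0.268 to 0.416) and the aged heart 77 reads with an allelic ratio of 0.636 (0.519 to 0.743). If all its reads were also counted for Tbx5, the remaining Tbx5 reads had an allelic ratio of 0.624 (adult) and 0.580 (aged), a difference of 0.0433 (-0.0318 to 0.120) with the sign turned, while the ratio of levels was 0.684. The direction of the small allelic ratio difference of Tbx5 therefore rests on the reads of Gm5563. Gata6 overlaps the divergent antisense RNA 1010001N08Rik over 58 bp, with an allelic ratio of 0.444 (adult) and 0.372 (aged). With its reads taken off, the allelic ratio difference of Gata6 was 0.0704 and the intervals remained apart. Mef2d overlaps 1700113A16Rik over 532 bp, a row of 48 and 39 reads, and without them its ratio of levels was 1.66 and its allelic ratio 0.460 and 0.468. For Gata6 and Mef2d all reads of the other row were taken off, though only those within the short overlap can be shared. Both checks may thus remove reads that the member does not hold.

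Rows next to members, within 10 kb, mostly held few reads, apart from LOC102636514 beside Hand2, with an allelic ratio of 0.601 (adult) and 0.735 (aged), separate intervals, a difference of -0.134. Beside Gata4 lay Neil2 (46 and 19 reads), beside Mef2a Lysmd4 (36 and 18) and 1700112J16Rik (6 and 0), beside Mef2c Gm33317 (7 and 1), beside Mef2d Gm40087 (94 and 30) and beside Tbx20 Gm29824 (22 and 12). Near Hand2, 5033428I22Rik (205 and 156 reads) and Gm34030 (60 and 61) lay on its other side. Within 500 kb of Gata6, 7 of 8 genes with at least 20 reads in each library were lower in allelic ratio in the aged heart, though 0 had separate intervals. Around Gata4, 9 of 13 such genes were lower in allelic ratio in the aged heart, opposite to Gata4 itself, and 1 had separate intervals. Around Tbx20 3 of 4 genes had separate intervals and 3 were lower in allelic ratio in the aged heart. Separate intervals were found for 11.8% of all autosomal genes, and for 27.2% of those with at least 500 reads in each library. The share of all genes with a lower allelic ratio in the aged heart was not computed. Whether a region shifted as a whole was not tested.

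Other members of the same families were thinly expressed. Of 13 genes in this list 9 were listed and 5 had at least 20 reads in each library, of which 3 were at least 1.5-fold higher in the aged heart and 0 lower past the fold, beside 28.3% and 11.7% of all autosomal genes, with a median ratio of 1.68 beside 1.17. Of these 3, Tbx3 and Mef2b were at or just above the read minimum in the adult library. Tbx2, a repressor of chamber genes, went from 52 to 85 reads, a ratio of 2.74 (1.92 to 3.95), and Tbx3, its relative in the conduction system, from 21 to 57 reads, a ratio of 4.56. Mef2b had 20 reads in each library. Tbx18, a factor of the sinus node and of mural cells, had a ratio of 0.826 (0.638 to 1.06) and Tbx15 one of 1.45 (0.914 to 2.29). Hand1, Nkx2-3, Nkx2-6 and Tbx4 were not analysed here.

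Among 22 factors that work with the members, 16 passed the minimum. Of these, 6 were at least 1.5-fold higher and 4 were lower past the fold, beside 28.3% and 11.7% of all autosomal genes, and the median ratio was 1.08 beside 1.17. Zfpm2 (FOG2), the cofactor that binds GATA4, had far more reads than any member and went from 2472 RPM in the adult to 1331 RPM in the aged heart, a ratio of 0.539 (0.525 to 0.553), while Gata4 went up. Both alleles of Zfpm2 shared this, with an allelic ratio of 0.511 and 0.508. The homeodomain factors Meis2 (0.574) and Meis1 (0.581) and the calcium-responsive Nfatc3 (0.470) were the others past the fold downwards. Myocd, the coactivator myocardin, had a ratio of 1.21 (1.17 to 1.25) and Tead1, of the Hippo pathway, one of 1.04 (0.997 to 1.09). Mkl1, a related coactivator of serum response factor, stood at 2.08 (1.89 to 2.29), and Smyd1, Srf, Zfpm1, Hey2 and Irx4 were the others higher past the fold. Near the read minimum in at least 1 library were Irx4 (22 and 20 reads), Srf (23 and 41) and Nfatc3 (75 and 21). The ratio interval of Irx4 (0.790 to 2.93) holds 1.

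In the MEF2 signalling list 10 of 11 genes passed the minimum. Past the fold, 1 was higher and 1 lower, beside 28.3% and 11.7% of all autosomal genes, and the median ratio was 0.905 beside 1.17. The class IIa deacetylases that repress MEF2 did not move as one, with Hdac9 at 0.665 (0.621 to 0.712), Hdac4 at 0.707 (0.668 to 0.747) and Hdac7 at 1.55 (1.38 to 1.74). Camk2d, the cardiac calcium-calmodulin kinase, had a ratio of 0.811 (0.786 to 0.837) and Ppp3ca, the catalytic subunit of calcineurin, one of 1.09 (1.05 to 1.12).

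Of 12 genes known as targets of the members 11 passed the minimum. Of these, 2 were higher past the fold and 0 lower, beside 28.3% and 11.7% of all autosomal genes, and the median ratio was 1.15 beside 1.17. Actc1, cardiac actin, went from 337 RPM in the adult to 1385 RPM in the aged heart, a ratio of 4.11 (3.95 to 4.28). Ckm, muscle creatine kinase, had a ratio of 1.77 (1.51 to 2.09). The targets with most reads hardly differed, with Slc8a1, the sodium-calcium exchanger, at 0.976, Atp2a2, the calcium pump of the sarcoplasmic reticulum, at 1.11 and Myh6, the main adult myosin heavy chain, at 1.15.

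For each member, the autosomal gene with the nearest values was sought among 7057 genes with at least 100 reads in each library, by Euclidean distance over 4 log2 RPM values, 1 for each allele and library. These were Grk5 for Gata4 (distance 0.178), Map4k3 for Gata6 (0.154), 9530026P05Rik for Mef2a (0.136), Snx29 for Mef2c (0.165), Gt(ROSA)26Sor for Mef2d (0.146), Xrcc5 for Tbx5 (0.162) and Map4 for Tbx20 (0.193). As 4 values from 2 libraries describe each gene, the match is one of level and allele. Map4k3, like Gata6, had a ratio below 1 (0.869) and an allelic ratio that was lower in the aged heart (0.570 and 0.524), and Grk5 a ratio of 1.55 beside 1.61 for Gata4. Ratios and allelic ratios are computed from the same 4 values used for the match, so this likeness follows from the choice. Hand2 and Nkx2-5 lay below the range of these genes.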

How the data were processed

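Nuclei from frozen hearts were profiled with a 3′ droplet kit. Alignment by the authors was with Cell Ranger (the submitters' processing notes name Cell Ranger 7.1.0 and Seurat 5.1.0); they split the reads by nucleus, pooled nuclei whose X-chromosomal allelic ratio was at least 0.8 and counted SNP-overlapping reads with Allelome.PRO2 over RefSeq genes of GRCm38. The deposited values are unnormalized counts per gene and allele, the allelic ratio as a fraction with 2 decimals, and an allelic score. Allelic ratios were computed from the counts, the deposited fraction served as an alternative, and the score was not used. The allele counts were made from the Cell Ranger alignments, while removal of background RNA (CellBender) and of doublets (DoubletFinder) is described for the expression matrices. Background RNA was thus not removed from these counts, and doublets could not be called in pooled reads here. Whether the pooled nuclei had passed the doublet filter, whether duplicate reads of a molecule were collapsed and whether strand was used is not given in the sources used here, and intervals treat reads as independent. The file name of the aged sample carries another age than its label, which was used. The labels give the wild-type genotype in 1 field and the Xist cross in another, and the wild-type genotype of the study's methods was used.

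Counts were divided by the total of all rows per library (9747535 and 5805807 reads) with no pseudocount. Ratios have exact 95% intervals from the conditional binomial of the counts, allelic ratios exact Clopper-Pearson intervals, levels exact Poisson intervals and differences in allelic ratio Newcombe intervals (Python 3.11.15, numpy 2.4.6, pandas 2.3.3, scipy 1.17.1, matplotlib 3.10.9). The functions were tested on simulated data. A minimum of 20 reads in each library and a fold of 1.5 were used for counts of genes. Samples were grouped by their labelled age.

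Members and lists were chosen with earlier results of these data known. Named were all members, every row overlapping or within 10 kb of one, in each list the 3 genes with most reads and up to 2 more with the largest ratios among those with at least 100 reads in each library, and the nearest gene of each member. Genes named to spell out a count (Tbx3, Mef2b, Meis1, Nfatc3, Smyd1, Srf, Zfpm1, Hey2, Irx4 and Tnnt2) or as not analysed are not from this rule, and their values had been seen when they were picked. Of each marker list the summed level is given. Some genes of the lists are not reported here and were left out of the counts and sums of their lists. Alternatives were other read minimums, folds, scales and reference shares, deposited allelic ratios, 1 allele at a time, locus length classes and the removal of reads of overlapping rows, of which the last 2 were added after the data were seen.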

Additional observations from a re-analysis of the deposited data

How the results depend on the processing

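Among single members, 3 values turned direction under an alternative, all with intervals that overlapped or held no change. Without the reads of overlapping rows the allelic ratio difference of Tbx5 went from -0.0376 to 0.0433 and that of Mef2d from 0.0107 to -0.00868. For Mef2d the other row overlaps over 532 bp only, so more reads than are shared may have been taken off. With BL6 reads only the level ratio of Hand2 went from 0.735 to 2.22. The deposited allelic ratios in place of computed ones turned no difference. For single members, 62 alternative values lay within the interval of the value given above and 25 lay outside it. Of the counts and shares, 42 alternative values stayed within 1.5 times the value given above and 24 moved further. The count of members at least 1.5-fold higher in the aged heart, 3 with library totals, was 1 with the median of ratios as the scale, 0 at a fold of 2 and 1 over the median of the length class. The count lower past the fold, 0 with library totals, was 3 with the median of ratios, 1 with CAST reads only and 1 over the length class. The higher to lower split of the members was thus 3 to 0 with library totals and 1 to 3 with the median of ratios. With the median allelic ratio of autosomal genes as the reference, 2 members in place of 3 lay above it in the adult heart. Gata4 no longer did, and the other counts did not change. Against a share of 0.5 in place of the autosomal share, 5 members lay above and 0 below in the adult heart, and 3 above and 0 below in the aged heart. Of all autosomal genes, 11.7% were higher and 5.17% lower at a fold of 2. With a minimum of 1 read, 18.6% were lower past 1.5-fold and 7.54% had separate allelic ratio intervals. Family members higher past the fold were 0 with at least 100 reads, as 0 genes passed that minimum. Partner factors higher past the fold were 3 with at least 100 reads, at a fold of 2 and with the median of ratios, and 1 was lower at a fold of 2. In the MEF2 signalling list 0 were higher at a fold of 2 and with the median of ratios, and 0 and 2 were lower. Target genes higher at a fold of 2 were 1. No paired analysis was possible because each age has 1 library. The spread between hearts was not measured, and depth limits Hand2 and Nkx2-5.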
